A study of Macaca fascicularis with 11 samples.

Results

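The cells described here were taken from cultured cynomolgus macaque embryos and held transcripts of at least 2 of the caudal genes CDX1, CDX2 and CDX4, but none of MIXL1, MESP1 or ISL1. They were chosen by measured values. In each cell the mean of ln(1 + UMIs per 10000) was taken over 4 lists of marker genes, where a UMI (unique molecular identifier) stands for 1 captured transcript. List T held the trophoblast genes CGA, XAGE3, PGF, KRT7, HSD3B1, VGLL1 and INSL4, and list E held POU5F1, IFITM1, L1TD1, DPPA4 and DNMT3B for the epiblast and its derivatives (Epi-derived cells). List M held the mesenchymal genes COL3A1, COL1A1, COL6A2, HGF, CCDC80, HAND2 and POSTN, and list N held the endoderm genes APOA1, TTR, FOXA2, SOX17, IHH and VTN. A cell was kept where the mean over list E, the E score, was the highest of the 4, at least 2 of the CDX genes had a UMI, and MIXL1, MESP1 and ISL1 had none. Of 33330 cells, 3026 had the highest score in list E, and 432 of these met the whole rule and are called CDX-positive cells below. Wild-type embryos gave 173 of them and ISL1 mutant embryos 259. The genes of the rule are given as a description and were not tested.

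The study asked what ISL1, a LIM-domain transcription factor, does in the early primate embryo, and profiled single cells of embryos cultured to Day 10, Day 12 and Day 14 after thawing as blastocysts. The mutants came from zygotes injected with guide RNAs against ISL1 and with Cas9, given as mRNA in the labels and as protein in the study's methods. Each mutant embryo was a mosaic of different alleles, most of them deletions, and the group is called hypomorphic. Wild-type embryos were captured in 6 libraries, 2 for each day, from 12 embryos, and mutant embryos in 5 libraries from 11 embryos, of which 1 was a Day 10 library and 2 each were Day 12 and Day 14 libraries. A library pooled between 1 and 3 embryos, and the library was taken as the replicate. Since the rule sets ISL1 to 0 UMIs, the genotype cannot be checked within these cells. Among the other E-highest cells, those with ISL1 and without MESP1 numbered between 3 and 46 in a wild-type library and between 27 and 82 in a mutant one, where the mRNA of an edited allele is counted as well. Libraries held between 325 and 9625 cells and between 36654977 and 164808415 UMIs, and the median CDX-positive cell held between 10871 and 114240 UMIs. Of 33205 cell barcodes, 124 occurred in more than 1 library, and no CDX-positive cell carried one of these. Scrublet marked 9 of the 432 CDX-positive cells as doublets, and they were kept.

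The caudal genes encode homeobox transcription factors that pattern the posterior body and switch on HOX genes, and in the gastrulating embryo they answer to WNT and FGF signals of the primitive streak. MIXL1 is a streak gene and MESP1 marks nascent mesoderm as it leaves the streak, whereas ISL1 is a gene of the primate amnion. CDX2 has another well known site of action, the trophoblast, where it helps to set up the lineage, so that a caudal transcript alone does not place a cell in the embryo proper.

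The label of epiblast-derived cells comes from the rule, and genes outside the rule went against it for most CDX-positive cells of the wild-type Day 10 libraries. Of these genes, NANOG was at 84.5 to 252 CPM (median 166) in the other 7 libraries with at least 5 CDX-positive cells. UTF1 was at 0 to 721 CPM (median 285) in them. The E-score margin is made of the rule's own lists, so it describes the cells and does not test the label. The margin of the E score over the next highest score had a median between 1.33 and 2.03 in the other 9 libraries, against 0.279 and 0.208 in the wild-type Day 10 libraries. A margin under 0.5 was found in 31 of 48 and 35 of 44 CDX-positive cells of wild-type Day 10 replicates 1 and 2, and in 0 to 4 cells of each other library. In these 66 cells POU5F1, the core pluripotency factor, was at 5.39 and 19.4 CPM (UMIs per 1000000, from the UMIs summed over the cells of a library). This was close to the 9.32 and 8.35 CPM of the T-highest cells of the same libraries and far under the 1689 and 1618 CPM of their epiblast-like cells. NANOG was at 1.80 and 1.46 CPM, DPPA4 at 18.6 and 16.8 CPM and UTF1 at 4.19 and 2.19 CPM. Their E score was carried by IFITM1 (822 and 179.7 CPM), L1TD1 (173 and 299 CPM) and DNMT3B (204 and 175 CPM). These cells also held HAND1 at 1666 and 1476 CPM, GATA3 at 459 and 310.4 CPM, GATA2 at 443 and 329 CPM and KRT18 at 8621 and 8071 CPM. In T-highest cells the listed nascent mesoderm genes, HAND1 included, summed to only 701 and 869 CPM, and list N to 127 and 235 CPM. APOA1 of the endoderm list N was at 472 and 548 CPM in the 66 cells, with a UMI in 90.3% and 94.3% of them. The genes of list T varied in these 66 cells. HSD3B1, a steroid enzyme gene, was at 439 and 916 CPM against 549 and 1095 CPM in T-highest cells, and the growth factor gene PGF at 125 and 116 CPM against 438 and 425 CPM. XAGE3 was at 313 and 33.2 CPM against 1416 and 598 CPM, VGLL1 at 169 and 31.8 CPM against 367 and 196 CPM and KRT7 at 46.7 and 20.8 CPM against 182 and 135 CPM. Of the hormone genes, CGA was at 5.39 and 2.19 CPM against 2790.4 and 1389 CPM and INSL4 at 5.39 and 0 CPM against 63.1 and 18.7 CPM. The T score was the second highest in 43 of 48 and 40 of 44 CDX-positive cells of these 2 libraries. This rank was not particular to them, since it was found in 25 of 27 cells of the mutant Day 10 library and 84 of 135 of mutant Day 12 replicate 1. The 17 and 9 cells of the same libraries with a margin of 0.5 or more had POU5F1 at 1414 and 1658 CPM and NANOG at 221 and 419 CPM. POU5F1 and DPPA4 belong to list E and so to the margin that split these cells, and their levels are a description, whereas NANOG and UTF1 are outside the rule. The 66 cells are therefore described by their leading genes and given no cell type name, and each comparison of genes between cell sets below is given with and without both wild-type Day 10 libraries.

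**Figure D1:**
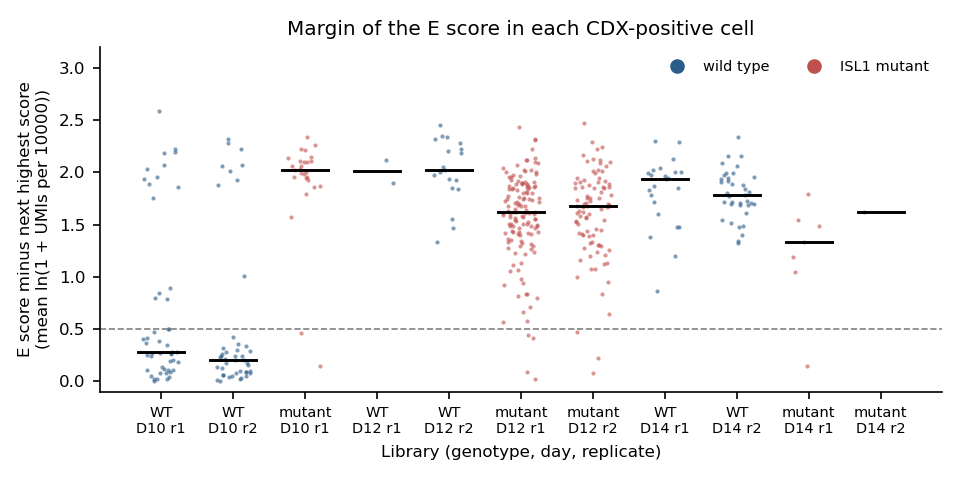
Margin of the E score over the next highest score (y axis, mean ln(1 + UMIs per 10000)) in each of the 432 CDX-positive cells, by library (x axis: genotype, day and replicate), with the library median as a black bar and a dashed line at 0.5. In wild-type Day 10 replicates 1 and 2, 31 of 48 and 35 of 44 cells lie under the line, and the other libraries have 0 to 4 cells there.

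Markers of other cell types were compared over whole lists in the sums of the CDX-positive cells of each library with at least 5 of them. Trophoblast genes outside the rule, 11 in all, summed to 4655 and 2248 CPM in wild-type Day 10 replicates 1 and 2, and to between 36.4 and 444 CPM in the other 7 libraries. The most abundant of them in the wild-type Day 10 libraries was S100P, at 3265 and 1639 CPM, against 3.57 to 93.5 CPM (median 41.9) elsewhere. The rule's list T summed to 798 and 884 CPM there and to between 53.6 and 1084 CPM elsewhere, the highest in wild-type Day 14 replicate 1. Most of that highest sum was the single gene CGA, at 1010 CPM. In wild-type Day 10 replicates 1 and 2 CGA was at 9.18 and 2.48 CPM, and HSD3B1 was the highest gene of the list at 296 and 694 CPM. Endoderm genes outside the rule, 7 in all, summed to 2.79 CPM or less in the 8 libraries with 10 or more CDX-positive cells, with 4 to 6 of them at 0. They summed to 46.7 CPM in the 7 cells of mutant Day 14 replicate 1. The rule's endoderm list N summed to 333 and 420.4 CPM in wild-type Day 10 replicates 1 and 2, to 129 CPM in mutant Day 14 replicate 1 and to 14.98 CPM or less elsewhere. Most of the wild-type Day 10 sums was APOA1, at 325 and 414 CPM. Mesenchymal genes outside the rule summed to between 37.1 and 169.8 CPM in the 8 libraries with at least 10 CDX-positive cells, and to 490.7 CPM in mutant Day 14 replicate 1. Most of each sum was CXCL12, at 27.5 and 21.2 CPM in wild-type Day 10 and 88.0 to 456 CPM (median 120) elsewhere. Epiblast-like cells held CXCL12 as well, at 120 and 112 CPM in wild-type Day 10 and 97.4 to 178 CPM (median 141) elsewhere. These sums are therefore not read as mesenchymal content. Blood and endothelial genes summed to between 5.52 and 29.3 CPM in all 9. The part of these other markers in the results was not tested. The mesodermal gene MSGN1 was at 0 UMIs in all 9 libraries, and the germ cell gene PRDM1 was at 0 in all but wild-type Day 10 replicate 2, where it was at 0.275 CPM.

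The first question was whether the share of CDX-positive cells among E-highest cells differed between genotypes or days. The comparison of genotypes did not pass its test, and that of days has too few libraries to reach a p under 0.05. At Day 10 the share was 21.9% and 14.4% in wild-type replicates 1 and 2 and 11.3% in the mutant library. Day 12 gave 13.3% and 12.1% in the wild type against 19.3% and 32.1% in the mutant replicates. The Day 14 wild-type replicates had 4.11% and 32.7%, and the mutant ones 1.96% and 1.15%. The wild-type Day 12 replicate 1 value rests on 2 of 15 cells (95% interval 1.66% to 40.5%, exact binomial). The wild-type Day 14 values come from larger counts, 23 of 559 for replicate 1 (95% interval 2.63% to 6.11%) and 37 of 113 for replicate 2 (95% interval 24.2% to 42.2%). These intervals cover counting error only, and the 2 wild-type Day 14 intervals do not meet. The mutant share minus the wild-type share, averaged over days, was -3.58 percentage points (exact permutation test within days, two-sided, p = 0.657, 108 arrangements). Over the 3 days of wild-type embryos the between-day variance gave p = 0.867 (exact permutation test, 90 arrangements, smallest possible p 0.0667). Within batch 1, as numbered in the labels, the mutant minus wild-type difference was -10.6 points at Day 10, 6.01 at Day 12 and -2.15 at Day 14. Within batch 2 it was 20.0 at Day 12 and -31.6 at Day 14. The sign thus differed between the days under both batch numbers, which the labels do not say are shared between genotypes. The mean of the mutant libraries lay above that of the wild type by 13.0 points at Day 12 and below it by 16.9 points at Day 14. The difference between these 2 effects was 29.9 points (exact permutation test, two-sided, p = 0.0556, the smallest that its 36 arrangements allow). The design therefore cannot reach a p under 0.05 here. With only the cells whose margin was 0.5 or more, the share in wild-type Day 10 replicates 1 and 2 was 9.77% and 3.75%, and the mutant minus wild-type difference was -0.024 points (exact permutation test, p = 1.00). The comparison of days turned on the wild-type Day 14 replicates. Day 14 minus the mean of Day 10 and Day 12 was 2.98 points with both, 17.3 without replicate 1 and -11.3 without replicate 2 (exact permutation p = 0.0667 in each of the last 2, the smallest that their 30 arrangements allow).

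**Figure D2:**
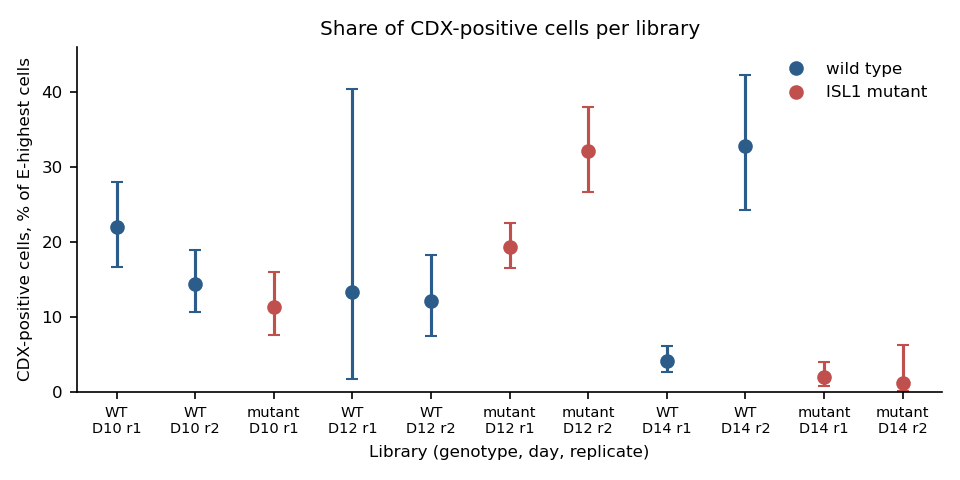
Share of CDX-positive cells among E-highest cells (y axis, percent) in each library (x axis: genotype, day and replicate), with 95% exact binomial intervals that cover counting error only. Both mutant Day 12 libraries lie above both wild-type ones, both mutant Day 14 libraries lie below both wild-type ones, and the wild-type Day 14 libraries lie at 4.11% and 32.7%.

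Deeper cells show more genes, so the shares were also computed with every E-highest cell thinned to 10000 UMIs, which left out 0 to 22 cells of a wild-type library and 0 to 217 cells of a mutant library. The thinned shares ranged from 2.14% to 45.1% over libraries, against 1.15% to 32.7% unthinned, and the mutant minus wild-type difference became -6.29 points (exact permutation test, p = 0.546). Depth differed between genotypes at Day 12, where the median E-highest cell held 132920 and 33550 UMIs in wild-type replicates. It held 15362.5 and 16150 UMIs in the mutant ones. The thinned Day 12 shares were 6.67% and 14.4% in the wild type against 16.9% and 34.2% in the mutant. At Day 14 they were 6.52% and 45.1% against 2.14% and 3.08%. Outside the E-highest cells, 2 or more CDX genes without MIXL1, MESP1 and ISL1 were found in 231 of 23242 T-highest cells (0.994%), 30 of 6560 M-highest cells (0.457%) and 16 of 502 N-highest cells (3.19%). The cells so found held a median of 67752, 31478.5 and 31585 UMIs, and how far free RNA gave these CDX transcripts was not tested. The shares of mutant Day 14 replicates 1 and 2 lay above those of T-highest and M-highest cells and below that of N-highest cells. The latter shares are pooled over libraries, and trophoblast can itself hold CDX2, so they give no like background. The median E-highest cell of mutant Day 14 replicates 1 and 2 held 7772 and 19807 UMIs. Whether the mutant Day 14 shares lay above background could therefore not be told, and they are not read as such.

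The caudal genes themselves are a description, since they chose the cells. All 3 CDX genes were seen in 152 of the 432 cells (35.2%), CDX1 with CDX2 alone in 227 (52.5%), CDX2 with CDX4 in 36 and CDX1 with CDX4 in 17. At Day 10 the wild-type cells were 83 of 92 with CDX1 and CDX2 alone (90.2%), and 5 of 92 had all 3. The cells with all 3 genes were 13 of 21 in wild-type embryos at Day 12, 31 of 60 at Day 14, 8 of 27 in mutant embryos at Day 10 and 93 of 224 at Day 12. In CPM, CDX4 stood at 6.38 and 0.275 CPM in the CDX-positive cells of wild-type Day 10 replicates 1 and 2 and at 12.6 to 119 CPM (median 61.5) in the other 7 libraries with at least 5 cells, with no overlap. CDX1 was at 207 and 254 CPM in the former and at 62.0 to 295 CPM (median 175) in the latter. CDX2 was at 159 and 159.8 CPM in wild-type Day 10 and at 68.3 to 409.6 CPM (median 233) elsewhere. For both genes the wild-type Day 10 values fell within the range of the others. At the edge of the rule, the median summed CDX count was 12 UMIs in cells with 3 CDX genes, 7 in those with 2, and 1 in the 316 cells just outside with 1 CDX gene. Their median depths were 18730, 22882.5 and 23142.5 UMIs, and the 1051 epiblast-like cells with none of the 6 genes had 18850. A further 774 E-highest cells had 2 or more CDX genes together with MIXL1, MESP1 or ISL1, at a median of 38364 UMIs, and 85, 26 and 75 of these stood outside by 1 UMI of MIXL1, MESP1 and ISL1 alone. The median depth of these nearest neighbours was 34031 UMIs for MIXL1, 31240 for MESP1 and 17597 for ISL1. Pooled over libraries, the CDX-positive cells had lower median depths than the neighbours with MIXL1 or MESP1, but not than those with ISL1. The median depth of E-highest cells ran from 7772 to 132920 UMIs over libraries, so the pooled medians also carry the mix of libraries. The part of depth in the absence of MIXL1, MESP1 and ISL1 was not tested.

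Other genes were set against the number of CDX genes seen in a cell, among E-highest cells without MIXL1, MESP1 and ISL1, as medians over the libraries with at least 5 such cells. These were 10 libraries for 0 CDX genes, 9 each for 1 and 2, and 7 for 3. From 0 to 3 CDX genes, MSX2, a homeobox target of BMP signalling, stood at 10.9, 57.1, 108 and 114 CPM. TBX3, a T-box factor, stood at 3.69, 12.2, 116 and 93.5 CPM, and its largest step came between 1 and 2 CDX genes. EVX1, a homeobox gene of the posterior streak, stood at 2.87, 12.4, 35.6 and 62.9 CPM, and SP5, a target of WNT signalling, at 0.881, 4.58, 25.9 and 32.4 CPM. HOXD9 stood at 0.0717, 0.469, 2.22 and 7.19 CPM. All of these genes had higher medians with 2 or 3 CDX genes than with 0 or 1, and NANOG and USP44 stood the other way round. NANOG stood at 252, 247, 165 and 171 CPM, and USP44, a deubiquitinase gene of the epiblast list, at 139, 86.7, 42.7 and 43.4 CPM. SFRP1, which encodes a secreted WNT antagonist, had its largest step between cells with 0 and 1 CDX gene, at 106, 29.8, 25.1 and 21.6 CPM. The 4 classes do not cover the same libraries, and wild-type Day 10 replicate 2 has no cell with 3 CDX genes, so the steps between them also carry differences between libraries and are a description without a test.

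**Figure D3:**
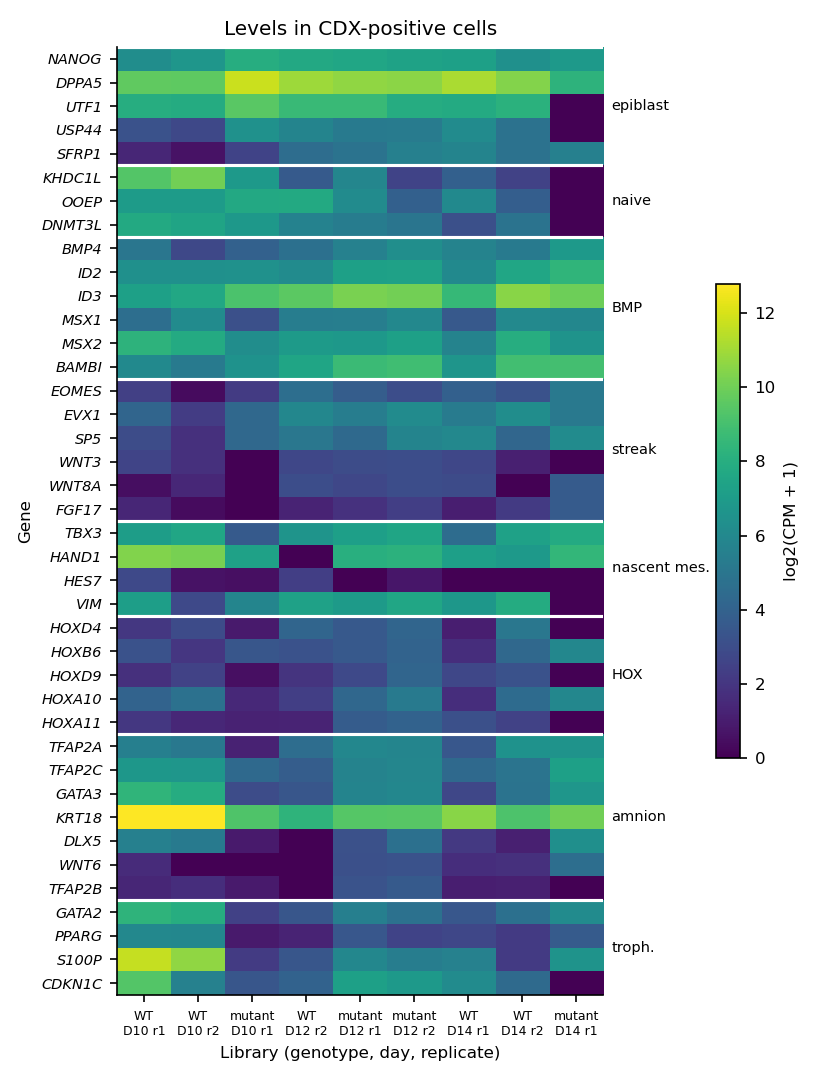
Levels in CDX-positive cells as log2(CPM + 1) (colour scale) of genes of the lists (y axis, grouped by role at the right) in the 9 libraries with at least 5 CDX-positive cells (x axis: genotype, day and replicate; mutant Day 14 replicate 1 has 7 cells). The 2 wild-type Day 10 libraries have the highest KRT18, HAND1, GATA2, S100P and KHDC1L of the 9 and the lowest ID3, and HAND1 is at 0 in wild-type Day 12 replicate 2.

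The second question was how CDX-positive cells differed from epiblast-like cells, the E-highest cells of the same library with no UMI of the 6 genes CDX1, CDX2, CDX4, MIXL1, MESP1 and ISL1. CDX-positive cells had more transcripts of several genes of the BMP pathway, the HOX clusters, the streak and the amnion, and fewer of several epiblast genes. UMIs were summed over the cells of each set in each library and tested by edgeR (quasi-likelihood, two-sided) with the library as a block, and a gene was called where its adjusted p was under 1%. In 7 libraries with both sets, 850 of 9088 genes differed (9.35%), 562 higher (6.18%) and 288 lower (3.17%) in CDX-positive cells. Without both wild-type Day 10 libraries, 223 of 8165 genes differed (2.73%), 146 higher (1.79%) and 77 lower (0.943%), and leaving out replicate 1 or replicate 2 of that day alone gave 236 and 338. The 31 genes of the rule were left out of this and the following fits, which share the CDX-positive cells and are therefore not independent of each other.

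Of the BMP pathway genes, 6 of 9 tested were higher, with a median log2 difference of 1.57 against -0.0027 over all genes tested, and 7 of 9 were higher without the wild-type Day 10 libraries. MSX2 ranged from 51.9 to 308 CPM (median 124) in CDX-positive cells and from 2.60 to 24.1 CPM (median 7.02) in epiblast-like cells. The 2 sets did not overlap, and the log2 difference was 3.65 ± 0.27 (SE, edgeR adjusted p = 4.88e-11), or 3.04 ± 0.26 without the wild-type Day 10 libraries. MSX1, its close relative, ranged from 7.64 to 70.7 CPM (median 41.9) against 0.187 to 3.29 CPM (median 0.577), again without overlap (log2 difference 4.91 ± 0.62, adjusted p = 2.47e-06). ID2, an inhibitor of basic helix-loop-helix factors that BMP signalling induces, ranged from 65.1 to 159 CPM (median 83.4) against 6.06 to 37.5 CPM (median 23.2), with no overlap. Its log2 difference was 2.28 ± 0.23 (adjusted p = 5.88e-08), and that of ID3 was 1.57 ± 0.23 (adjusted p = 2.02e-05), higher in 7 of 7 libraries though the ranges overlapped. The ligand gene BMP4 itself was at 5.78 to 78.2 CPM (median 31.9) against 1.73 to 5.86 CPM (median 3.57), higher in 7 of 7 libraries (log2 difference 2.41 ± 0.46, adjusted p = 0.000465). BAMBI, a decoy receptor that dampens BMP signals, was higher by a log2 difference of 1.12 ± 0.27 (adjusted p = 0.00368). The BMP targets ID1 and ID4 did not pass (log2 differences 0.78 ± 0.24 and 0.13 ± 0.34, adjusted p = 0.0196 and 0.845). ID1 had lower values than in epiblast-like cells in both wild-type Day 10 libraries, at 109 and 122 against 235 and 301 CPM, and higher values in the other 5. ID4 was at 7.58 and 1.65 against 35.1 and 7.29 CPM in the wild-type Day 10 libraries and had higher values in 4 of the other 5.

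Of the HOX genes, which give cells their place along the body axis, 8 of 12 tested were higher (median log2 difference 3.51), and 8 of 11 without the wild-type Day 10 libraries, 7 of them the same genes. They were low in both sets, and the higher ones came from the A, B and D clusters. HOXA11 was at 1.35 to 15.4 CPM (median 3.19) in CDX-positive cells and at 0 to 0.888 CPM (median 0) in epiblast-like cells, without overlap (log2 difference 3.32 ± 0.63, adjusted p = 0.000515). HOXD9 was at 0.449 to 16.8 CPM (median 4.68) against 0 to 1.10 CPM (median 0.143), higher in 7 of 7 libraries (log2 difference 4.06 ± 0.48, adjusted p = 1.63e-06). HOXD4 and HOXA10 were higher in 7 of 7 libraries as well, by 4.05 and 3.69 on the log2 scale, and so was HOXB6 by 2.87. HOXD12 was higher in 5 of 7 libraries (log2 difference 4.26 ± 0.87) and HOXB9 in 6 of 7, and the HOXB9 call was lost without the wild-type Day 10 libraries (adjusted p = 0.0831). Several of the epiblast-like values were 0 UMIs, so the fitted log2 differences of these genes depend on the prior count and are no bounds.

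Genes of the primitive streak were higher in 5 of 9 tested (median log2 difference 2.51), and in 3 of 9 without the wild-type Day 10 libraries. EOMES, a T-box factor of the streak, was at 0.275 to 23.8 CPM (median 6.99) in CDX-positive cells and at 0 to 0.577 CPM (median 0) in epiblast-like cells (log2 difference 4.44 ± 0.64, adjusted p = 2.02e-05). SP5 was at 2.48 to 61.8 CPM (median 19.7) against 0.187 to 5.48 CPM (median 0.892), higher in 7 of 7 libraries (log2 difference 4.18 ± 0.50, adjusted p = 1.63e-06). EVX1 was at 3.85 to 69.9 CPM (median 38.6) against 0.289 to 10.1 CPM (median 3.29). Its log2 difference was 2.73 ± 0.47 in all libraries and 4.47 ± 0.37 (adjusted p = 6.10e-09) without the wild-type Day 10 libraries, where the sets did not overlap. The ligand genes WNT3 and WNT8A were higher in 6 of 7 libraries each (log2 differences 2.51 ± 0.60 and 2.57 ± 0.69), at no more than 6.99 CPM. Neither passed without the wild-type Day 10 libraries (adjusted p = 0.0613 and 0.0179). Of the WNT pathway, 5 of 11 genes were higher and 1 lower. WLS, which carries WNT ligands to the cell surface, was at 10.8 to 196 CPM (median 58.5) against 0 to 15.3 CPM (median 1.78), a log2 difference of 3.44 ± 0.51 (adjusted p = 2.36e-05). Of the nascent mesoderm list 3 of 9 genes were higher. TBX3 was at 11.2 to 190.4 CPM (median 139.6) against 0 to 7.67 CPM (median 1.50), without overlap (log2 difference 4.82 ± 0.49, adjusted p = 5.88e-08). HAND1 was higher in 6 of 7 libraries, by a log2 difference of 4.61 ± 0.87, or 3.19 ± 0.64 without the wild-type Day 10 libraries.

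Of the amnion list 9 of 15 genes were higher (median log2 difference 1.63), and 6 of 15 without the wild-type Day 10 libraries, 5 of them the same genes. TFAP2A, an AP-2 factor of surface ectoderm and amnion, was at 1.35 to 59.9 CPM (median 33.8) against 0.374 to 8.88 CPM (median 2.02), higher in 6 of 7 libraries (log2 difference 2.99 ± 0.44, adjusted p = 2.32e-05). The keratin gene KRT18 was at 314 to 7049.7 CPM (median 717) against 102 to 1081 CPM (median 168), and without the wild-type Day 10 libraries its ranges did not overlap (log2 difference 1.90 ± 0.45, adjusted p = 0.00813). ANXA3 was higher by a log2 difference of 1.77 with and 1.73 without these libraries, TFAP2C by 1.47 and 1.34, and WNT6 by 3.25 and 3.29. Other members of the list lost their call without the wild-type Day 10 libraries, in which the trophoblast list was also high. GATA3 went from a log2 difference of 3.08 ± 0.56 to 1.56 ± 0.43 (adjusted p = 0.0251) when these were left out. Likewise DLX5 went from a log2 difference of 2.92 ± 0.62 to 1.50 ± 0.50 (adjusted p = 0.0771) and KRT19 from 1.52 ± 0.32 to 0.70 ± 0.20 (adjusted p = 0.0350), and TFAP2B lost its call as well. Of the 10 trophoblast genes tested, GATA2 and GATA3 were higher, and GATA2, a factor shared by trophoblast and amnion, went from a log2 difference of 3.65 ± 0.50 to 2.05 ± 0.35 without the wild-type Day 10 libraries, where it still passed (adjusted p = 0.000339).

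Of the epiblast list 4 of 16 genes tested were lower and none higher (median log2 difference -0.89), and 4 of 16 were lower without the wild-type Day 10 libraries, 3 of them the same genes. SFRP1 was at 0.550 to 54.1 CPM (median 22.4) in CDX-positive cells and at 4.67 to 348 CPM (median 47.3) in epiblast-like cells. It was lower in 7 of 7 libraries (log2 difference -2.12 ± 0.40, adjusted p = 0.000428, and -2.10 ± 0.36 without the wild-type Day 10 libraries). USP44 was at 5.78 to 87.6 CPM (median 38.4) against 54.2 to 193 CPM (median 136), lower in 7 of 7 libraries (log2 difference -1.86 ± 0.38, adjusted p = 0.000990). IGFBP2, an insulin-like growth factor binding protein, was lower (log2 difference -0.96 ± 0.22). The pluripotency genes NANOG, UTF1 and DPPA5 had lower values in 7 of 7 libraries and did not pass the test over all libraries. NANOG had a log2 difference of -0.83 ± 0.31 (adjusted p = 0.04997) and -0.41 ± 0.20 without the wild-type Day 10 libraries (adjusted p = 0.258). UTF1 had a log2 difference of -1.07 ± 0.30 (adjusted p = 0.0120) and passed without these libraries at -0.78 ± 0.18 (adjusted p = 0.00672).

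Outside the lists, the genes with the lowest p that moved the same way in every library were, among the higher ones, TMEM54 (log2 difference 2.70 ± 0.33), which encodes a transmembrane protein, and SLC25A24 (1.78 ± 0.23), which encodes a mitochondrial ATP carrier. The 2 sets did not overlap in SLC25A24. Among the lower ones were MT2A, a metallothionein gene (log2 difference -1.66 ± 0.33), IGFBP6 (-1.56 ± 0.31), NNAT, the gene of neuronatin (-1.12 ± 0.23), PSIP1 (-0.87 ± 0.18) and TERF1, which encodes a telomere-binding protein (-0.87 ± 0.19). Lower as well were HDHD5 (log2 difference -0.67 ± 0.12), TUBB6 (-0.82 ± 0.16) and ENAH (-0.50 ± 0.11), of which TUBB6 and ENAH lost their call without the wild-type Day 10 libraries (adjusted p = 0.0802 and 0.0331). Of the remaining lists, the immediate early gene FOS was higher and HSP90AB1 lower among 7 stress genes (log2 difference 1.50 ± 0.23 and -0.23 ± 0.054), and HSP90AB1 lost its call without the wild-type Day 10 libraries (adjusted p = 0.0554). None of 8 FGF pathway genes passed. Of 12 cell cycle genes PCLAF alone did, with a log2 difference of 2.43 ± 0.55 in all libraries and 0.49 ± 0.43 (adjusted p = 0.628) without the wild-type Day 10 libraries. Of 5 genes of the naive state DPP4 passed (log2 difference 1.83 ± 0.49), at 20.7 and 37.4 CPM in the wild-type Day 10 libraries and 0 to 4.89 CPM (median 3.00) elsewhere. It passed the filter on low counts through those 2 libraries, and without them it was not tested. TFAP2C was the higher gene of 4 germ cell genes. The adhesion gene DSP was higher among 8 genes of epithelium and mesenchyme (log2 difference 1.32 ± 0.35), which was lost without the wild-type Day 10 libraries (adjusted p = 0.565).

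**Figure D4:**
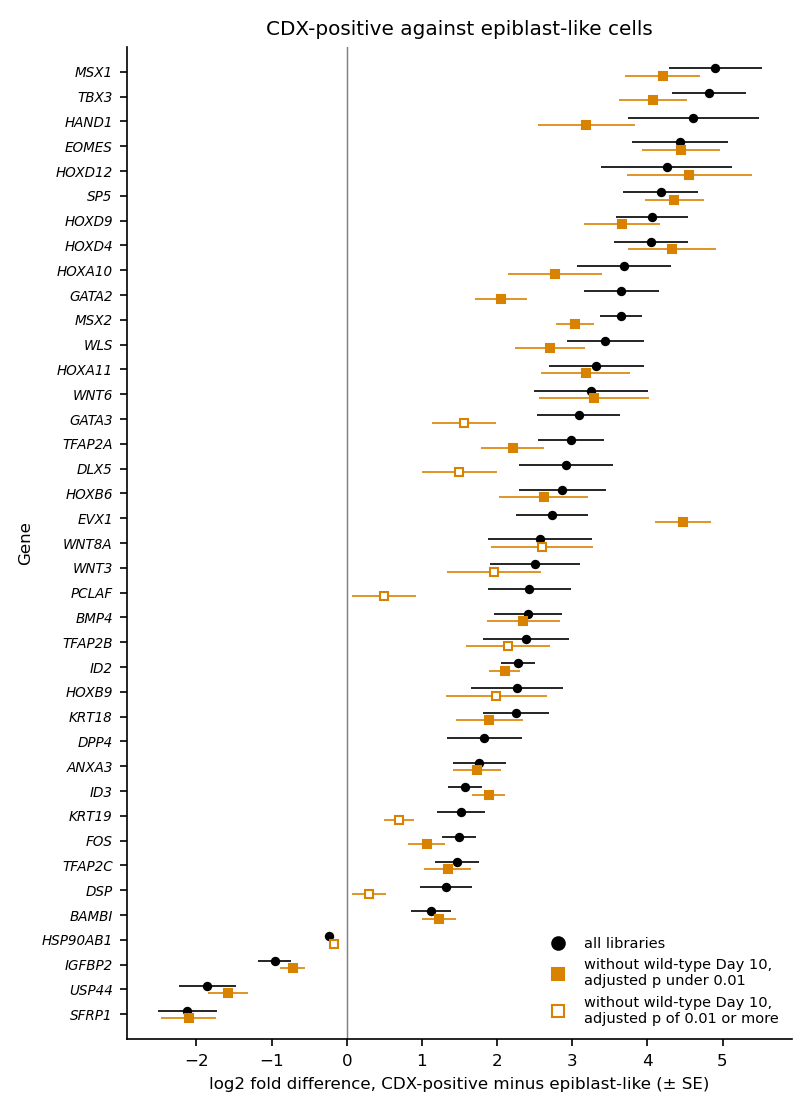
Log2 difference between CDX-positive and epiblast-like cells (x axis, edgeR estimate ± SE) for genes of the lists that passed in all libraries (y axis), in all libraries (black circles) and without both wild-type Day 10 libraries (orange squares, filled where the adjusted p was under 0.01; DPP4 was not tested there). BMP targets, HOX and streak genes lie to the right in both fits, and GATA3, DLX5, PCLAF, KRT19 and DSP move towards 0 without the wild-type Day 10 libraries.

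CDX-positive cells were next compared with MIXL1-positive cells, the E-highest cells with MIXL1 and without MESP1 and ISL1. No gene passed in 7 libraries, so 0.0% of 9088 genes differed, with 893 genes at an unadjusted p under 0.05. The same test found none without both wild-type Day 10 libraries either (0.0%), with 342 genes at an unadjusted p under 0.05, nor did DESeq2 in all libraries. A count of 0 does not show that the sets are alike, and the genes of the lists with the lowest p are given as estimates. FGF17, a streak ligand, had lower values in 6 of 7 libraries, with a log2 difference of -2.12 ± 0.62 (adjusted p = 0.449), and WNT8A in 6 of 7, with -1.54 ± 0.50. FGF17 ranged from 0 to 4.19 CPM (median 1.397) in CDX-positive and from 0 to 16.8 CPM (median 4.41) in MIXL1-positive cells. MSX2 had higher values in 5 of 7 libraries, with a log2 difference of 0.80 ± 0.24 and the same adjusted p, and TBX3 in 5 of 7, with 0.96 ± 0.38 (adjusted p = 0.459). Without the wild-type Day 10 libraries both had higher values in 3 of 5. In the wild-type Day 10 libraries MSX2 was at 308 and 222 against 137 and 75.4 CPM and TBX3 at 139.6 and 190.4 against 68.8 and 64.1 CPM. The median log2 difference over the 12 HOX genes tested was -0.40, over 15 amnion genes 0.57 and over 10 trophoblast genes 1.03, against 0.019 over all genes. Without the wild-type Day 10 libraries the medians were -0.74 over 11 HOX genes, 0.36 over 15 amnion genes and 0.77 over 9 trophoblast genes.

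MESP1-positive cells, the E-highest cells with MESP1 and without ISL1, were set against CDX-positive cells in the same way. In 7 libraries 266 of 9088 genes differed (2.93%), 78 higher (0.858%) and 188 lower (2.07%) in CDX-positive cells, and 169 of 8165 without the wild-type Day 10 libraries (2.07%), 41 higher (0.502%) and 128 lower (1.57%). Leaving out wild-type Day 10 replicate 1, Day 10 replicate 2 or Day 14 replicate 1 alone gave 145, 171 and 136 genes. CDX-positive cells had fewer transcripts of most streak and HOX genes tested, of several nascent mesoderm genes and of the retinoid genes tested. All 3 retinoid genes tested were lower in both fits. CYP26A1, the enzyme that clears retinoic acid, was at 0 to 11.004 CPM (median 7.73) in CDX-positive cells and at 47.7 to 351 CPM (median 185) in MESP1-positive cells, without overlap (log2 difference -4.44 ± 0.51, adjusted p = 5.90e-07). CRABP2, a retinoic acid binding protein gene, was lower in 7 of 7 libraries (log2 difference -1.22 ± 0.20). Of the streak list 8 of 9 genes were lower, and 5 of 9 without the wild-type Day 10 libraries. WNT8A was at 0 to 6.99 CPM (median 1.65) against 27.9 to 115 CPM (median 37.6), a log2 difference of -4.18 ± 0.44 (adjusted p = 1.36e-07). FGF17 was at 0 to 3.57 CPM (median 1.397) against 5.57 to 90.0 CPM (median 34.99), a log2 difference of -4.75 ± 0.53. Neither gene's sets overlapped. EOMES was lower (log2 difference -2.94 ± 0.38), the LIM factor LHX1 (-4.49 ± 0.70), and FOXH1, a partner of NODAL signalling (-1.44 ± 0.24) without overlap.

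Of the nascent mesoderm list 5 of 9 genes were lower than in MESP1-positive cells, and 4 of 8 without the wild-type Day 10 libraries. HES7, an oscillating repressor of the presomitic mesoderm, was at 0 to 5.98 CPM (median 0.449) in CDX-positive cells against 8.45 to 50.1 CPM (median 25.1), without overlap (log2 difference -3.91 ± 0.52, adjusted p = 6.17e-06). The mesenchymal genes CDH2 and VIM were lower in 7 of 7 libraries (log2 difference -2.73 ± 0.51 and -2.07 ± 0.46), and the VIM call was lost without the wild-type Day 10 libraries (adjusted p = 0.0250). RSPO3, which strengthens WNT signals, was lower (log2 difference -2.99 ± 0.46), and HAS2, a hyaluronan synthase (-1.43 ± 0.26). Of the HOX genes 9 of 12 were lower (median log2 difference -2.44) and 7 of 11 without the wild-type Day 10 libraries, all 7 of them also called with these libraries. HOXB6 was at 2.21 to 19.1 CPM (median 8.39) in CDX-positive cells against 35.1 to 97.2 CPM (median 68.6), a log2 difference of -3.11 ± 0.41. HOXB2 was at 1.10 to 22.6 CPM (median 6.05) against 34.7 to 82.5 CPM (median 40.7), a log2 difference of -2.38 ± 0.47, and neither gene overlapped between the sets. HOXA10 and HOXA11, which were higher than in epiblast-like cells, were not among the HOX genes called here. BMP4 was lower too, at 5.78 to 51.9 CPM (median 31.9) against 82.5 to 188 CPM (median 125), a log2 difference of -2.05 ± 0.39, with no overlap, though its adjusted p rose to 0.0175 without the wild-type Day 10 libraries.

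No gene of the epiblast or the amnion list passed against MESP1-positive cells in all libraries, and 2 of 16 epiblast genes were higher without the wild-type Day 10 libraries, NANOG among them (log2 difference 1.14 ± 0.23, adjusted p = 0.00288). Outside the lists, CDX-positive cells had less PTGR1, a prostaglandin reductase gene, at 56.3 to 331 CPM (median 101) against 1227 to 2375 CPM (median 1484), without overlap (log2 difference -3.62 ± 0.38). IFNGR2, a subunit of the interferon gamma receptor, was lower (log2 difference -2.23 ± 0.22), the cytokine gene IL15 (-3.03 ± 0.39), LZTS1 (-3.35 ± 0.37), TXNRD3 (-2.35 ± 0.28) and TNS4 (-2.68 ± 0.35), each without overlap. Among the higher genes with the lowest p was SGK1, a serum- and glucocorticoid-induced kinase gene, at 70.6 to 236 CPM (median 111) against 17.5 to 78.1 CPM (median 51.4), a log2 difference of 1.44 ± 0.24 (adjusted p = 0.000149). NMRK2 was higher by a log2 difference of 0.97 ± 0.18, SYNE2 by 0.88 ± 0.19, CRIP1 by 0.80 ± 0.17, AP1S1 by 0.54 ± 0.11, LAPTM4A by 0.48 ± 0.10, MYL6B by 0.40 ± 0.088 and PAFAH1B3 by 0.35 ± 0.083. Of these 8 higher genes, SGK1 and NMRK2 kept their call without the wild-type Day 10 libraries. Of the other lists, 5 of 11 WNT genes, 2 of 8 FGF genes, 2 of 9 BMP genes and 2 of 8 genes of epithelium and mesenchyme were lower. None of the trophoblast, germ cell, naive state, stress, mesenchyme, blood or cell cycle genes passed.

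Against ISL1-positive cells, the E-highest cells with ISL1 and without MESP1, CDX-positive cells had fewer transcripts of some amnion genes and of some HOX genes. In 8 libraries 107 of 9088 genes differed (1.18%), 35 higher (0.385%) and 72 lower (0.792%). This count turned on the wild-type Day 10 libraries, and without both 1107 of 8165 genes differed (13.6%), 524 higher (6.42%) and 583 lower (7.14%). The same test called no gene in the wild-type libraries alone, with 1367 genes at an unadjusted p under 0.05. Leaving out a single library gave between 27 genes, without the mutant Day 10 library, and 272, without wild-type Day 10 replicate 2. Of the amnion list 6 of 15 genes were lower, and 11 of 15 without the wild-type Day 10 libraries, the first 6 among them. KRT18, KRT19, GATA3, DLX5 and TFAP2A did not pass in the fit of all 8 libraries. Each had higher values in CDX-positive cells in both wild-type Day 10 libraries and lower ones in the other 6, with KRT18 at 7012 and 7049.7 against 4292 and 2024 CPM and GATA3 at 330.0 and 242 against 160.3 and 42.0 CPM in the former. TFAP2B, an AP-2 factor, was at 0 to 11.2 CPM (median 1.39) in CDX-positive cells and at 3.07 to 54.0 CPM (median 20.6) in ISL1-positive cells, lower in 8 of 8 libraries (log2 difference -2.57 ± 0.41, adjusted p = 0.000597). WNT6 was at 0 to 8.38 CPM (median 2.10) against 0.264 to 53.4 CPM (median 19.5), a log2 difference of -2.92 ± 0.49. HEY1, a target of NOTCH signalling, was at 1.10 to 28.6 CPM (median 5.67) against 4.49 to 164 CPM (median 36.4), a log2 difference of -2.17 ± 0.39. TSPAN2 was lower (log2 difference -1.85 ± 0.29), MEST (-1.62 ± 0.31) and SPNS2, which exports sphingosine-1-phosphate (-4.23 ± 0.75). BMP4 was lower in 8 of 8 libraries, at 5.78 to 78.2 CPM (median 35.01) against 33.0 to 291 CPM (median 182), a log2 difference of -2.004 ± 0.36 (adjusted p = 0.00113). BMP4 was thus higher than in epiblast-like cells and lower than in MESP1-positive and ISL1-positive cells.

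Of the HOX genes 6 of 12 were lower than in ISL1-positive cells, and 8 of 11 without the wild-type Day 10 libraries. HOXD12 was at 0 to 14.7 CPM (median 1.59) against 11.6 to 60.7 CPM (median 27.9), a log2 difference of -2.87 ± 0.50. HOXA11 was at 1.35 to 15.4 CPM (median 3.98) against 3.96 to 65.7 CPM (median 37.1), a log2 difference of -2.30 ± 0.41. Both were lower in 8 of 8 libraries, without overlap once the wild-type Day 10 libraries were left out. The homeobox gene MEIS2, whose protein binds DNA with HOX factors, was at 0 to 9.88 CPM (median 4.11) against 6.07 to 81.6 CPM (median 43.6), a log2 difference of -3.11 ± 0.46 (adjusted p = 0.000410). CDON, a Hedgehog co-receptor gene, was lower (log2 difference -1.60 ± 0.23), MAP1B, a microtubule protein gene (-1.82 ± 0.28), LBH (-1.07 ± 0.17) and the fibronectin gene FN1 (-1.97 ± 0.38). Of the epiblast list VCAN, which encodes the matrix proteoglycan versican, was the single gene higher in all libraries (log2 difference 1.33 ± 0.28), and 12 of 16 were higher without the wild-type Day 10 libraries. For NANOG the log2 difference was then 1.77 ± 0.21 (adjusted p = 1.15e-06) against 0.90 ± 0.31 (adjusted p = 0.0818) in all libraries. That of UTF1 was then a log2 difference of 1.81 ± 0.18 and that of DPPA5 1.61 ± 0.21. The zinc transporter gene SLC39A4 was higher in 8 of 8 libraries, at 351 to 778 CPM (median 531) against 224 to 474 CPM (median 341), a log2 difference of 0.67 ± 0.13. Of the other lists, GINS2 was higher among 12 cell cycle genes (log2 difference 0.38 ± 0.077) and HSPB1 lower among 7 stress genes (-0.76 ± 0.17). No streak, nascent mesoderm, FGF, retinoid, naive state, germ cell, trophoblast, mesenchyme or blood gene passed in all libraries.

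**Figure D5:**
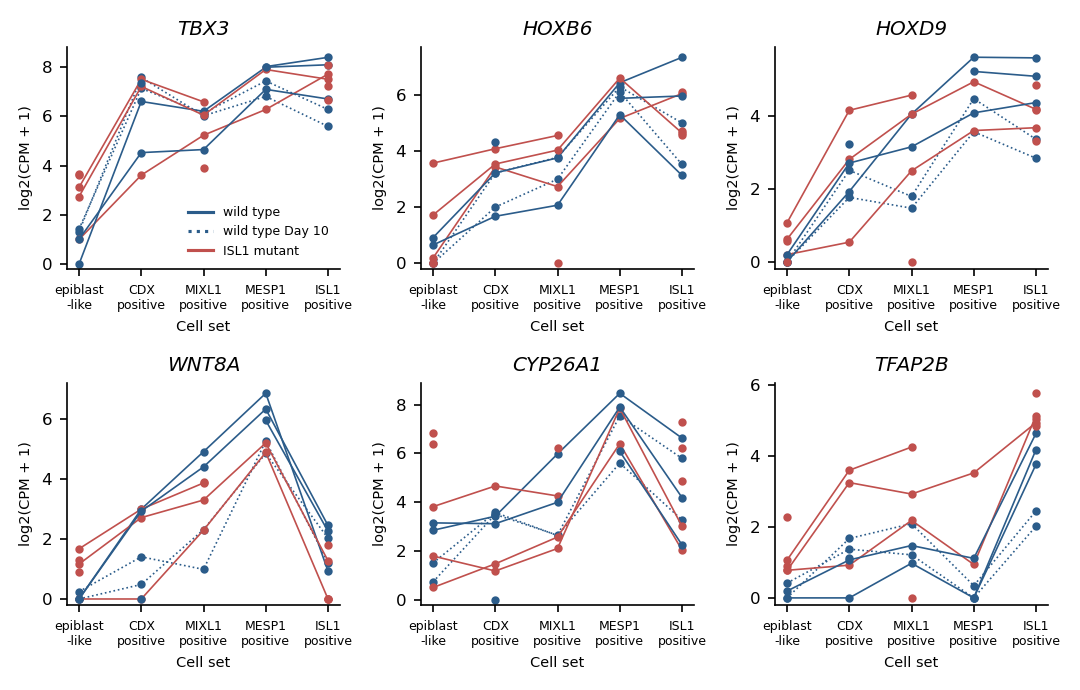
Levels of 6 genes as log2(CPM + 1) (y axis) in the 5 cell sets (x axis), 1 line per library, with points for sets of at least 10 cells and no line across a missing set; wild type in blue, its Day 10 libraries dotted, ISL1 mutant in red. TBX3 lies above epiblast-like cells in the CDX-positive cells of all 7 libraries with both, and in the 7 libraries with both CDX-positive and MESP1-positive cells WNT8A and CYP26A1 peak in MESP1-positive cells.

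The CDX-positive cells of mutant and wild-type embryos were compared with the day as a covariate in the 5 Day 12 and Day 14 libraries that had at least 10 such cells. No mutant Day 14 library reached 10 cells, so the difference rests on Day 12, where 2 mutant libraries with 135 and 89 cells met 1 wild-type library with 19. The spread came from the mutant Day 12 and the wild-type Day 14 libraries, and none from wild-type Day 12. Of 7493 genes tested 4 differed (0.0534%), 3 higher (0.04%) and 1 lower (0.0133%) in mutant cells, with 941 at an unadjusted p under 0.05. HAND1, a basic helix-loop-helix factor of extraembryonic and lateral mesoderm, was the only 1 of the 4 with a symbol in the tables used. It was at 266 and 300.4 CPM in mutant Day 12 replicates 1 and 2 and at 0 UMIs in the 19 cells of wild-type Day 12 replicate 2 (adjusted p = 0.00178). A count of 3 UMIs in that library would be 4.19 CPM, and the mutant levels were 63.5- and 71.6-fold that value. This floor covers counting in that 1 library only and sets no bound on the difference between genotypes. The HAND1 level was 146 and 118 CPM in wild-type Day 14 replicates 1 and 2 and 1328 and 1146 CPM in the wild-type Day 10 libraries. It was 156 CPM in the mutant Day 10 library and 351 CPM in the 7 cells of mutant Day 14 replicate 1, and the 0 stood alone among all libraries with at least 5 CDX-positive cells. Markers of other cell types and stress genes had higher summed values in the mutant Day 12 libraries than in the wild-type Day 12 one. The trophoblast genes outside the rule summed to 444 and 342 CPM in mutant Day 12 replicates 1 and 2 against 50.3 CPM in wild-type Day 12 replicate 2, with 1, 1 and 4 of 11 at 0, and list T to 473 and 604 CPM against 99.2 CPM. None of the 8 trophoblast genes tested passed, with a median log2 difference of 3.48 against 0.0355 over all genes. The 2 mesenchymal genes tested did not pass either, with a median of 3.70, and the mesenchymal sums were 157.5 and 169.8 CPM against 89.4 CPM. Most of each of these sums was CXCL12, which epiblast-like cells held as well. The 7 stress genes summed to 6339 and 8164 CPM against 4805 CPM, and the median log2 difference of the 6 tested was 2.20, with none passed. The wild-type Day 14 libraries had trophoblast sums of 170.0 and 88.1 CPM and stress sums of 6645 and 4877 CPM, and the part of these markers in the HAND1 result was not tested. Without wild-type Day 12 replicate 2 the comparison could not be made, and the calls rest on that library. The next genes of the lists did not pass. DDIT4, a stress response gene, had a log2 difference of 3.07 ± 0.41 (adjusted p = 0.0309). LIN28A, an RNA-binding protein gene of pluripotent cells, had a log2 difference of -1.45 ± 0.29 (adjusted p = 0.127). The count depended on the method, from 0 where cells with all 3 CDX genes were used and 1 with uncorrected counts to 18 with DESeq2 and 198 without a filter on low counts. It was 9, 9 and 10 without wild-type Day 14 replicate 1, wild-type Day 14 replicate 2 and mutant Day 12 replicate 1.

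Within wild-type embryos, Day 14 was compared with the mean of Day 10 and Day 12 in the 5 libraries with at least 10 CDX-positive cells. None of 7756 genes passed by edgeR (0.0%), with 1155 genes at an unadjusted p under 0.05, 43 calls by DESeq2 and 14 by edgeR with the labelled batch as a block. Leaving out wild-type Day 12 replicate 2, the lone Day 12 library, gave 494 calls, and these set Day 14 against Day 10, where most cells had a small margin. Single genes are therefore given as levels. KHDC1L, a gene of the naive state of pluripotency, was at 14.3 and 4.76 CPM at Day 14, against 656 and 1053 CPM at Day 10 and 11.2 CPM at Day 12. NLRP7, a maternal effect gene of the same list, was at 18.8 and 64.3 CPM at Day 14, against 653 and 859 CPM at Day 10 and 109 CPM at Day 12, and its Day 10 values lay above the others (log2 difference -2.70 ± 0.47, adjusted p = 0.0989). SFRP1 was at 54.1 and 27.4 CPM at Day 14, against 1.60 and 0.550 CPM at Day 10 and 22.4 CPM at Day 12, with the Day 10 values lowest (log2 difference 3.17 ± 0.49, adjusted p = 0.0790). CRABP2, of the retinoid list, was at 141 and 181 CPM at Day 14, against 12.4 and 6.05 CPM at Day 10 and 108 CPM at Day 12 (log2 difference 2.47 ± 0.33, adjusted p = 0.0620). ID3 was at 383 and 1473 CPM at Day 14, against 155 and 201 CPM at Day 10 and 745 CPM at Day 12, and its Day 14 replicates stood on either side of the Day 12 value.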

How the data were processed

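Single cells of cultured cynomolgus embryos were captured on droplets in 11 libraries, grouped by genotype, day and batch from the labels. Per the study's methods the authors counted UMIs with Cell Ranger 3.1.0, filtered cells on mitochondrial share and gene number, and removed ambient RNA with SoupX, so the deposited values are corrected, expected counts for 19367 genes in 33330 cells; the deposited uncorrected counts hold 209 further cells and were used as an alternative. Subtracting ambient RNA lowers UMIs near 0, on which the rule rests. Gene identifiers were paired with symbols for 1019 of 19367 genes, and a gene without one could be counted but not named.

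UMIs were summed per library and cell set of at least 10 cells. Each sum was fitted with edgeR 4.0.16 (R 4.3.3; TMM, filterByExpr, quasi-likelihood test, Benjamini-Hochberg, false discovery rate 1%), with the library as a block for comparisons within libraries; the 31 genes of the rule were left out of tests but kept in library sizes. Levels (CPM) were taken from sets of at least 5 cells. Shares were compared with exact permutation tests over libraries. Doublets were marked with Scrublet in scanpy 1.11.5. The tests were tested on simulated data with a fixed dispersion. All simulated sets shared 1 mean level per gene, and libraries differed by depth alone, so recovery in the data can be lower. The fit between genotypes recovered 0%, 12.1% and 52.5% of changes of 1, 2 and 3 on the log2 scale. The fit over wild-type days recovered 2.04%, 45.8% and 77.8% of them. Fits between cell sets recovered 23.4% to 47.7% of changes of 1 and 98.5% to 100% of changes of 2. Low counts of calls between genotypes and over days therefore do not show a lack of differences. Nor does the count of 0 against MIXL1-positive cells, since the simulation was simpler than the data. Alternatives were DESeq2 1.42.0, other size factors, no filter on low counts, uncorrected counts, at least 20 cells, other rules for the CDX genes and the margin, and leaving out libraries. Named genes were measured members of the lists, by role (some are counted in their list but not reported here), and per comparison up to 10 genes a direction with the lowest p that moved the same way in every library. The members and lists were chosen with earlier results of these data known. A library is a pool of 1 to 3 embryos, so p-values measure the spread between these libraries.

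The labels number the libraries of a day as batch 1 and 2. The main tests did not use this number. It was taken to pair libraries only in alternatives and in the share differences given within a batch. The labels do not say that a batch is shared between genotypes or days. The deviations of same-numbered libraries from their group means correlated at 0.0655 (wild type Day 10 with Day 14), -0.00927 (wild type Day 10 with mutant Day 12) and -0.0771 (wild type Day 14 with mutant Day 12) over 8261 genes.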

Additional observations from a re-analysis of the deposited data

Results flagged for a closer look

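The difference between genotypes in the share of CDX-positive cells among E-highest cells had opposite signs at Day 12 and Day 14, which was not past a test. The mutant minus wild-type difference was 13.0 percentage points at Day 12, where both mutant libraries were above both wild-type libraries, and -16.9 points at Day 14, where both mutant libraries were below both. The gap between these effects was 29.9 points, and an exact permutation test gave p = 0.0556, the smallest its 36 arrangements allow. The Day 14 difference rests on 7 and 1 mutant cells and on wild-type libraries at 4.11% and 32.7%. The Day 12 order did not hold in 2 alternatives. As a share of all cells, mutant replicates 1 and 2 had 2.24% and 1.52% at Day 12, against 0.615% and 1.94% in the wild type. With all 3 CDX genes the Day 12 shares of E-highest cells were 5.44% and 19.9% against 0% and 8.28%. No group had the 4 libraries that a test for an outlying library needs.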

How the results depend on the processing

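The difference between genotypes in the share of CDX-positive cells passed no test. The smallest possible p was 0.0556 on Day 12 and Day 14 alone and without the mutant Day 10 library, 0.125 with the replicate block, and 0.00926 to 0.0278 otherwise. The tests over wild-type days could not go below 0.0667 and say nothing of stability. The mutant minus wild-type difference of -3.58 points turned to 0.270 with cells holding all 3 CDX genes and to 1.12 with 1 or more CDX genes, and ranged from -8.35 to 1.19 over libraries left out in turn, the highest being without wild-type Day 14 replicate 2. Day 14 minus the earlier wild-type days, 2.98 points, turned to -2.40 with all cells as the denominator and ranged from -11.3 to 17.3 over libraries left out.

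Against epiblast-like cells the 850 calls became 225 with a margin of at least 0.5, 120 with all 3 CDX genes, 162 with no library block and 223 without both wild-type Day 10 libraries, an alternative chosen after seeing the data, and 236 to 994 over libraries left out. Against MIXL1-positive cells the count was 0 in every alternative run (0 to 0 over libraries left out). Against MESP1-positive cells the 266 calls became 169 with at least 20 cells, 65 with all 3 CDX genes, 177 in wild-type libraries alone, 43 with no library block, 169 without both wild-type Day 10 libraries, and 136 to 260 over libraries left out. Against ISL1-positive cells the 107 calls became 231 by DESeq2, 352 with a margin of at least 0.5, 7 with all 3 CDX genes, 0 in wild-type libraries alone (1367 genes at an unadjusted p under 0.05 by edgeR), 16 with no library block and 1107 without both wild-type Day 10 libraries. Over libraries left out they ranged from 27 to 272, with 189 and 272 without wild-type Day 10 replicates 1 and 2, 66 and 37 without wild-type Day 12 replicate 2 and Day 14 replicate 1, 27 without the mutant Day 10 library, and 55 and 65 without mutant Day 12 replicates 1 and 2.

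Between genotypes the 4 calls became 18 by DESeq2, 198 with no filter on low counts, 1 with uncorrected counts and 0 with all 3 CDX genes (640 genes at an unadjusted p under 0.05 by edgeR), and 5 to 10 over libraries left out. Over wild-type days the 0 calls became 43 by DESeq2, 234 with no filter on low counts, 494 with at least 20 cells, 1 with a margin of at least 0.5 and 2 with all 3 CDX genes. They ranged from 0 to 494 over libraries left out, with 55 and 6 without Day 10 replicates 1 and 2, 494 without Day 12 replicate 2 and 1 without Day 14 replicate 2. With the batch as a replicate block the pairing gave 14 calls over days, 6 between genotypes, and a share difference of -1.93 points on Day 12 and Day 14 (exact permutation p = 0.875, 16 arrangements). The difference was the same -1.93 points on these days without the block, so the shift from -3.58 comes from leaving out Day 10. Comparisons between cell sets had the library as their block, and the batch was not fitted there. The cause of these shifts was not tested.

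Stability was counted over 125 pairs of a named gene and a comparison, chosen mostly because they passed in the main fit. Under 2605 combinations of pair and alternative, none changed direction, 2178 kept their side of the threshold, 422 lost their call and 5 gained one. No pair came from the comparison with MIXL1-positive cells or over wild-type days. NANOG, which gained a call against MESP1-positive and ISL1-positive cells without the wild-type Day 10 libraries, was not counted there, so the counts do not cover genes that failed in the main fit. Fits between genotypes at Day 14 alone, with at least 20 cells, or without wild-type Day 12 replicate 2 could not be made, since no day then held both genotypes. Precision was limited by 1 to 135 CDX-positive cells per library and by a median depth between 10871 and 114240 UMIs per cell.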
